A study of Nomascus leucogenys and Hoolock leuconedys and Nomascus gabriellae with 23 samples.

Results

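LAVA is a composite retrotransposon found in gibbons, and the calls described here are its insertions at genes that regulate chromatin. Sites were chosen by gene name alone. A site was taken if its name began with KDM, KMT, SETD, SMARC, DNMT or INO80 followed by any character, which leaves out INO80 itself. Names that began with HDAC, ARID, BRD, PHF, PRDM, KAT, BAZ, TET, EHMT, NSD, SMYD, CBX, EZH, SIRT, JMJD, ING or CHD followed by a digit were taken too. Names with a hyphen were left out. The rule took 43 of the 5490 sites in the deposited table, or of the 3143 that carry a gene name, and these 43 lay in or beside 34 genes on 19 chromosomes. They were compared with the 3100 other named sites, which carry 2573 gene names.

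Each animal was scored as carrying or not carrying LAVA at each site from whole-genome sequencing of blood DNA, so the values are calls of presence and not levels. The 23 gibbons belong to 4 genera. Nomascus was sampled from 11 N. leucogenys and 2 N. gabriellae, Hylobates from 2 H. moloch and 1 animal each of H. muelleri, H. lar and H. pileatus, Hoolock from 3 H. leuconedys, and Symphalangus from 2 S. syndactylus. No treatment is part of the design, and the labels do not say whether any animals are related. The depth behind each call is unknown.

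Genes of this group act on the packaging of DNA. Methyltransferases and acetyltransferases add chemical marks to histones, demethylases and deacetylases remove them, reader proteins bind the marks, and remodelling complexes move or evict nucleosomes with energy from ATP. DNA methyltransferases and TET enzymes add and oxidise methyl groups on cytosine, and in mammals these systems take part in the silencing of transposons. The names follow the human gene set. All 34 names were found as protein-coding genes in the RefSeq gene table of the N. leucogenys assembly Asia_NLE_v1. The name rule is wider than chromatin in places: SIRT5, for example, is best known as a mitochondrial deacylase.

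The table holds sites of 2 forms. A single-base site has a position 1 base wide, and an interval site spans its whole element. Interval sites may be elements of the reference genome the reads were compared with, but no source states this. All 1118 interval sites of the table were carried in Nomascus, and all of them by N. leucogenys replicate 1, so this form holds no site that Nomascus lacks. In the labels that animal is titled Asia, a name that the RefSeq assembly above also bears. What part the way sites were found has in the counts by genus, in either form, was not tested. Of the 43 sites, 30 were single-base and 13 interval. Every one of the 5490 sites had at least 2 carriers, so a site found in Symphalangus alone had to be carried by both of its animals, and one found in Hoolock alone by at least 2 of 3. Calls were missing in 7 of 989 cases, 6 of them at 1 site in KMT2C and 1 in ING5, and are counted below as not carried. Positions below count from 1 and follow the authors' table, whose genome build no source names. Only 2 of the 43 sites fell inside the RefSeq position of their gene, so no RefSeq coordinate is used.

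Among the 180 protein-coding symbols that match the rule in the RefSeq table, 34 had a site in the LAVA table, or 18.9% (exact 95% interval 13.5 to 25.4). Of the 20344 other protein-coding symbols, 1845 did, or 9.07% (interval 8.68 to 9.47). Leaving out symbols that begin with LOC, which rarely match a human name, raised the second share to 11% of 16835 (interval 10.5 to 11.4). Only 1845 of the 2573 other gene names with a site are among these symbols, while all 34 names of the rule are. The rest of the other names are not counted, and how many of them are protein-coding is not known here. Gene length also differs between genes. The part of either in the gap was not tested. By family, all 3 NSD genes had a site, as did 2 of 3 TET, 2 of 4 BAZ, 4 of 17 KDM, 2 of 7 SIRT, 3 of 13 SMARC, 4 of 18 PHF, 2 of 8 BRD, 2 of 8 KAT, 2 of 11 HDAC, 2 of 10 SETD, 1 of 4 INO80, 1 of 5 SMYD, 1 of 5 ING, 1 of 8 KMT, 1 of 10 ARID and 1 of 10 CHD genes. No site was listed under the 15 PRDM, 8 CBX, 5 JMJD, 4 DNMT, 2 EHMT and 2 EZH symbols. Of the 34 genes, 26 had 1 site, 7 had 2 and 1, HDAC1, had 3.

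**Figure D1:**
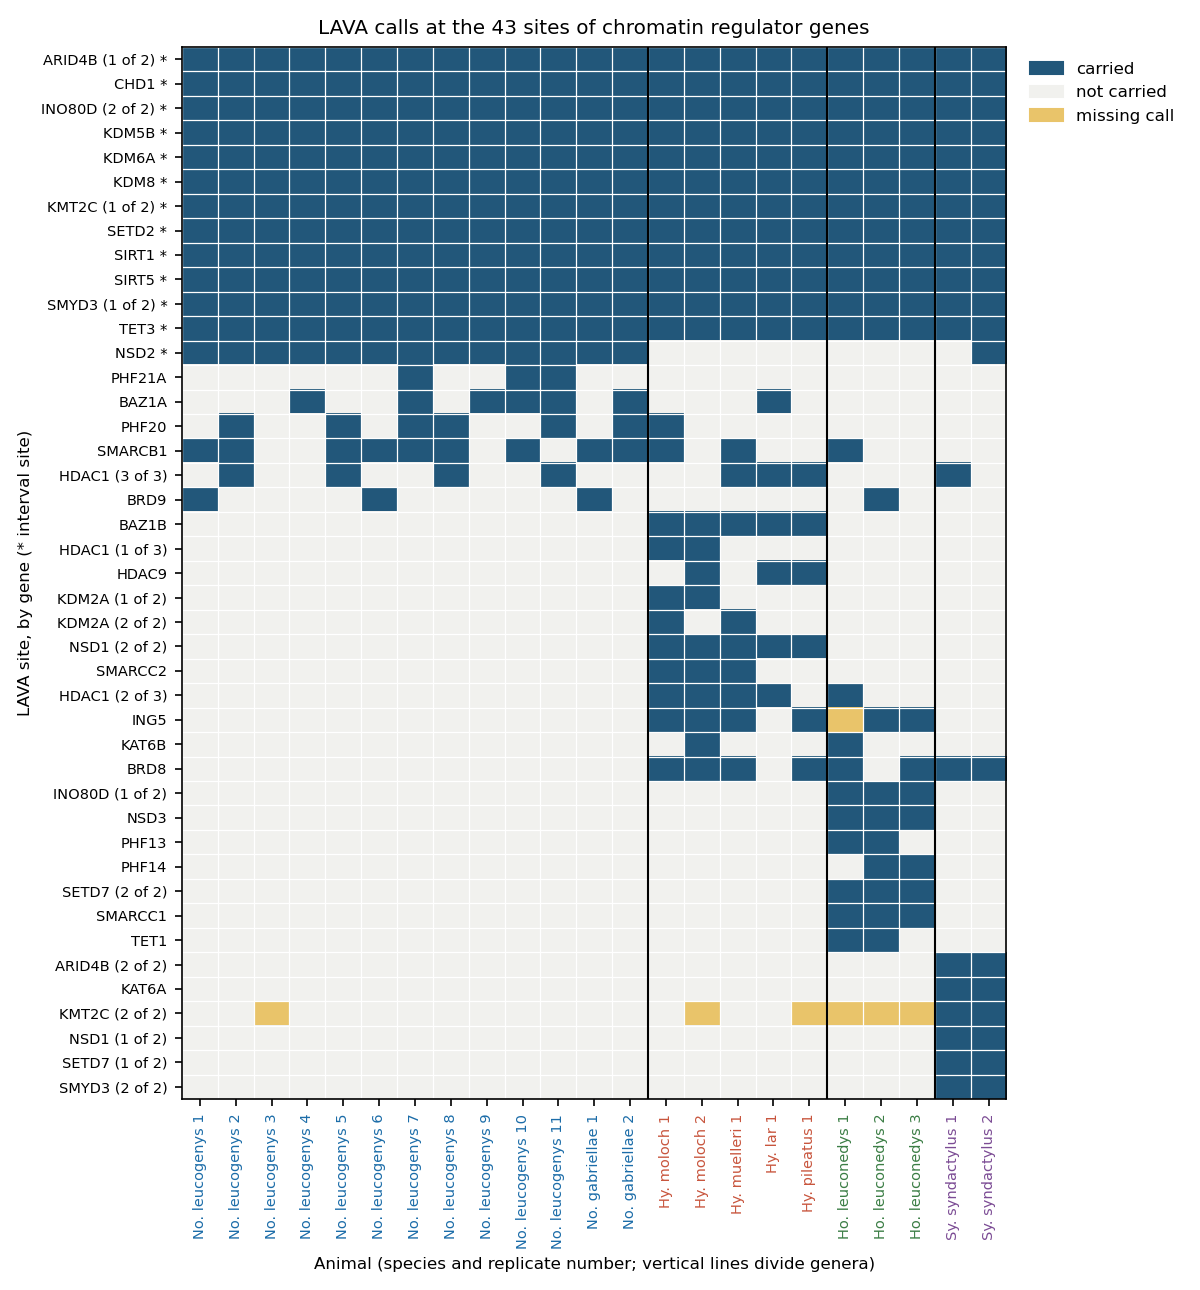
Calls at the 43 sites (rows, by gene; a gene with several sites has them numbered along its chromosome) in the 23 animals (columns, coloured and divided by genus). Dark cells mark carried sites, pale cells sites not carried and yellow cells missing calls; 12 interval sites fill the top rows in every animal, and below them single-base sites form blocks in Hylobates, Hoolock and Symphalangus.

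The sites fell into a shared set and a set that differs between genera. All 23 animals carried 12 of them, every one an interval site. The 13th interval site, in NSD2, was carried by 14 animals. Of the 30 single-base sites 21 were carried in 1 genus, 6 in 2 and 3 in 3 genera, and none in all 4. Single-genus sites numbered 7 in Hylobates, 7 in Hoolock, 6 in Symphalangus and 1 in Nomascus. Where a site is classed as intronic, promoter or terminator, the class is that of the deposited table.

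Histone methyltransferase genes held 11 sites in 7 genes, all intronic. They are also the largest of the role groups. With 7 of 45 symbols, or 15.6%, they had the lowest share of genes with a site, against 17.9% to 28.6% in the others. The 45 include the 15 PRDM symbols, none of which had a site. Both the size and the rank of the group depend on placing these here. The NSD family of H3K36 methyltransferases had a site in each of its 3 genes, and no 2 of them shared the same carriers. In NSD2 (ENSG00000109685) an antisense element of 1103 bp, on chromosome 20 from 83491835 to 83492937, was carried by all 13 Nomascus animals and by S. syndactylus replicate 2, and by no Hylobates or Hoolock animal. It was the only interval site of the 43 that any animal lacked. In NSD1 (ENSG00000165671) both Symphalangus animals carried an antisense insertion of 763 bp at 3468660 on chromosome 2, and all 5 Hylobates animals a sense insertion of 422 bp at 3502976. These lay 34.3 kb apart, and no animal carried both. In NSD3 an antisense insertion of 720 bp at 44084883 on chromosome 8 was carried by the 3 Hoolock animals alone. Every animal thus carried an element in an NSD gene, in NSD2 in Nomascus, NSD1 in Hylobates, NSD3 in Hoolock and NSD1 at another position in Symphalangus. The same is true of each family with a site carried by all 23 animals, such as KDM, SIRT and TET. This pattern was not set beforehand.

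SETD7 (ENSG00000145391), which encodes a lysine methyltransferase with histone and non-histone substrates, had 2 sense insertions 59.1 kb apart on chromosome 7b. That at 63312200 was 1837 bp long and carried by both Symphalangus animals, and that at 63371308 was 1623 bp long and carried by the 3 Hoolock animals. No animal of Nomascus or Hylobates carried either. SMYD3 (ENSG00000185420), another lysine methyltransferase gene, had an antisense interval element of 1133 bp in all 23 animals (chromosome 5, 1993768 to 1994900). A further antisense insertion of 1837 bp, 4.71 kb away at 1999608, was carried by both Symphalangus animals only. This was the closest pair of sites in any of the 34 genes.

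KMT2C (ENSG00000055609) encodes a large H3K4 methyltransferase. Its antisense interval element of 1125 bp, on chromosome 13 from 102830115 to 102831239, was carried by all 23 animals. A sense insertion of 1322 bp at 102921956, 90.7 kb away, was carried by both Symphalangus animals. Calls there were missing in 6 animals, among them all 3 Hoolock, so its absence from Hoolock was not measured. SETD2, whose enzyme adds the third methyl group to H3K36, held an antisense element of 1455 bp in all 23 animals (chromosome 4, 105550516 to 105551970).

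Demethylase genes held 5 sites in 4 genes, of which 3 were interval elements carried by all 23 animals. KDM5B encodes an H3K4 demethylase, and its antisense element on chromosome 9 from 13432733 to 13433695 was 963 bp long. KDM6A encodes an H3K27 demethylase and held the only X-linked site of the 43, an antisense element of 1258 bp from 46776861 to 46778118. The element named for KDM8, a JmjC-domain protein gene, was 741 bp long, sense and classed as terminator (chromosome 2, 83072944 to 83073684). The other 2 sites were in KDM2A, an H3K36 demethylase gene, both sense and both in Hylobates alone. Its promoter insertion of 578 bp at 87531057 on chromosome 4 was carried by both H. moloch animals. Its intronic insertion of 461 bp at 87641769, 111 kb away, was carried by H. moloch replicate 1 and by H. muelleri. Only H. moloch replicate 1 carried both.

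Among acetyltransferase genes, the related KAT6A and KAT6B each had 1 antisense intronic insertion. That of KAT6A, 606 bp at 47658084 on chromosome 8, was carried by both Symphalangus animals. That of KAT6B, 404 bp at 32028876 on chromosome 18, was carried by H. moloch replicate 2 and H. leuconedys replicate 1, and was the shortest element of the 43.

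Deacetylase genes held 6 intronic sites in 4 genes. HDAC1 (ENSG00000116478), which encodes the catalytic subunit of several co-repressor complexes, had 3 single-base sites within 19.3 kb of each other on chromosome 12. The first, at 1637236, was a 462 bp antisense insertion in both H. moloch animals. The second, at 1644893, was a 464 bp sense insertion in both H. moloch animals, H. muelleri, H. lar and H. leuconedys replicate 1. The third, at 1656576, was a 1109 bp sense insertion in 4 N. leucogenys (replicates 2, 5, 8 and 11), in H. muelleri, H. lar and H. pileatus, and in S. syndactylus replicate 1. Every Hylobates animal carried at least 1 of the 3 and none carried all of them. HDAC9 had an antisense insertion of 462 bp at 41167371 on chromosome 11 in H. moloch replicate 2, H. lar and H. pileatus. The 2 sirtuin genes with a site, SIRT1 and SIRT5, each held an antisense interval element carried by all 23 animals. It was 2073 bp long in SIRT1 (chromosome 18, 17022223 to 17024295) and 794 bp in SIRT5 (chromosome 8, 64372253 to 64373046).

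Genes of the ARID, BAZ, CHD, INO80 and SMARC families, grouped here as remodellers, held 10 sites in 8 genes. ARID4B (ENSG00000054267), a subunit of the SIN3 co-repressor, had an antisense interval element of 1170 bp in all 23 animals (chromosome 5, 13310359 to 13311528). Its sense insertion of 451 bp at 13355015, 43.5 kb away, was carried by both Symphalangus animals. INO80D (ENSG00000114933), a subunit of the INO80 complex, had an antisense interval element of 1840 bp in all 23 animals (chromosome 22a, 96506443 to 96508282). An antisense insertion of 1369 bp, 32 kb away at 96474456, was carried by the 3 Hoolock animals. The element named for CHD1, an ATP-dependent remodeller gene, was sense, classed as terminator and carried by all 23 animals (chromosome 2, 113091105 to 113093214). Its length of 2110 bp, over a consensus stretch of 1368 bp, was the largest given for the 43. Length is the span on the genome for interval sites but the consensus stretch for single-base sites.

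The BAZ genes encode subunits of ISWI remodelling complexes. BAZ1B had a sense insertion of 1835 bp at 40443169 on chromosome 17 in all 5 Hylobates animals and no other. BAZ1A had a sense insertion of 432 bp at 109422374 on chromosome 1a in 5 of 11 N. leucogenys, 1 of 2 N. gabriellae and H. lar. SMARCB1, SMARCC1 and SMARCC2 encode core subunits of BAF (SWI/SNF) complexes. SMARCC1 had an antisense insertion of 1828 bp at 104972903 on chromosome 4 in the 3 Hoolock animals alone. SMARCC2 had a sense insertion of 1616 bp at 56671364 on chromosome 11 in both H. moloch and the H. muelleri animal. SMARCB1 had an antisense insertion of 1252 bp at 53842699 on chromosome 7b in 12 animals, 9 of 13 Nomascus, H. moloch replicate 1, H. muelleri and H. leuconedys replicate 1. It was the single-base site with the most carriers.

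Reader genes held 7 single-base sites in 7 genes and no interval site. BRD8 encodes a bromodomain protein of the NuA4/TIP60 acetyltransferase complex. Its antisense insertion of 1625 bp at 43143165 on chromosome 2 was absent from all 13 Nomascus and carried by 4 of 5 Hylobates (all but H. lar), 2 of 3 Hoolock and both Symphalangus animals. ING5, a PHD-finger protein gene of histone acetyltransferase complexes, had an antisense insertion of 1668 bp at 132848363 on chromosome 22a in 4 of 5 Hylobates (again all but H. lar) and 2 of 3 Hoolock, with a missing call in the third Hoolock animal. BRD9, a subunit gene of a BAF-type complex, had an antisense insertion of 428 bp at 635753 on chromosome 6 in 2 N. leucogenys, 1 N. gabriellae and 1 Hoolock animal.

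The 4 PHF genes, named for their PHD fingers, each had 1 insertion. PHF20 had a sense insertion of 665 bp at 28948713 on chromosome 13 in 5 N. leucogenys, 1 N. gabriellae and H. moloch replicate 1. PHF21A, a reader of unmethylated H3K4, had a sense insertion of 711 bp at 110036644 on chromosome 15 in 3 N. leucogenys, the only site of the 43 found in Nomascus alone. PHF14 had an antisense insertion of 1831 bp at 33321833 on chromosome 11 in H. leuconedys replicates 2 and 3. The PHF13 site was an antisense promoter insertion of 451 bp at 6620859 on chromosome 24 in H. leuconedys replicates 1 and 2. Among the DNA demethylation enzymes, TET1 had an antisense insertion of 1837 bp at 17986629 on chromosome 18 in the same pair of Hoolock animals. TET3 had a sense interval element of 1971 bp in all 23 animals (chromosome 14, 59447581 to 59449551).

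Carriers in each genus were compared with those in the animals of the other 3 genera at every site by Fisher's exact test (two-sided), and p was adjusted over all 5490 sites by the Benjamini-Hochberg method, with a threshold of 0.05. The 4 comparisons share animals. Of the 43 sites 18 passed in at least 1 of them, or 41.9%, where 46.7% of all sites did. Without the Symphalangus comparison, whose outcome the minimum of 2 carriers sets, 12 of the 43 passed, or 27.9%, where 37.1% of all sites did. The 18 were 17 single-base sites and NSD2. The sites carried by all 23 animals cannot differ, and the other 13 single-base sites did not pass.

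Nomascus was the higher side at 1 of the 43 sites, NSD2, where 13 of 13 Nomascus and 1 of 10 other animals carried the element (Fisher's exact test, adjusted p = 0.000542). Of all sites in the table, a share of 3.01% was higher in Nomascus. It was the lower side at 2 sites, BRD8 with 0 of 13 against 8 of 10 (adjusted p = 0.0024) and ING5 with 0 of 13 against 6 of 10, of which 1 had no call (adjusted p = 0.0279), against 4.79% of all sites. The calls in NSD2 and BRD8 held when each of 13 animals was left out in turn. NSD2 is an interval site, and every interval site was carried by N. leucogenys replicate 1. The direction of the NSD2 call is therefore not independent of its form, and the call is given as a description. The ING5 call was lost without either H. moloch animal, H. muelleri or H. pileatus (adjusted p = 0.0539 to 0.0555).

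Hylobates was the higher side at 5 sites, against 11.5% of all sites. At those in BAZ1B and NSD1 all 5 Hylobates and none of 18 other animals carried the insertion (Fisher's exact test, adjusted p = 0.000841), and both calls held without each of the same 13 animals. The others were the second HDAC1 site with 4 of 5 against 1 of 18 (adjusted p = 0.0353), and HDAC9 and SMARCC2, each with 3 of 5 against 0 of 18 (adjusted p = 0.0458). The HDAC1 call was lost without either H. moloch animal, H. muelleri or H. lar (adjusted p = 0.0796 to 0.112). The calls of HDAC9 and SMARCC2 were lost without N. leucogenys replicate 1 or either N. gabriellae animal, and without each of their 3 own carriers (adjusted p = 0.0523 to 0.165). NSD2 was lower in Hylobates, with 0 of 5 against 14 of 18 (adjusted p = 0.045), where 0.856% of all sites were lower. That call was lost without N. leucogenys replicate 1, either N. gabriellae or any 1 Hylobates animal (adjusted p = 0.0523 to 0.112). The limit given for the Nomascus call in NSD2, an interval site, holds here too.

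Hoolock was the higher side at 4 sites, in NSD3, SETD7, INO80D and SMARCC1, each carried by 3 of 3 Hoolock and 0 of 20 other animals (Fisher's exact test, adjusted p = 0.00326). These are 9.3% of the 43 sites (exact interval 2.59 to 22.1), where 18.7% of all sites were higher in Hoolock. The 4 calls held without each of the 13 animals. The sites of PHF13, PHF14 and TET1, carried by 2 of 3 Hoolock and no other animal, did not pass (adjusted p = 0.0512). Since each site has at least 2 carriers, a site found in Hoolock alone has 2 or 3 carriers there. Those with 3 all pass and those with 2 all fail. For such sites the test only restates the number of carriers.

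Both Symphalangus animals and no other animal with a call carried the sites in KMT2C, NSD1, SETD7, SMYD3, KAT6A and ARID4B. At the KMT2C site 15 of the 21 other animals had a call. All 526 sites of the table found in Symphalangus alone have this pattern, since each site has at least 2 carriers, and the 6 sites are given as a description. They passed Fisher's exact test (adjusted p = 0.0411), as did 9.58% of all sites in that direction, but these are the same 526 sites and nothing is read from the pass. With either animal left out none of the 6 passed (adjusted p = 0.471), and the KMT2C site did not pass with missing calls left out (adjusted p = 0.0765). All but KAT6A of these 6 genes also held a site of other genera, namely an interval element of all 23 animals in KMT2C, SMYD3 and ARID4B, the Hoolock insertion in SETD7 and the Hylobates insertion in NSD1.

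**Figure D2:**
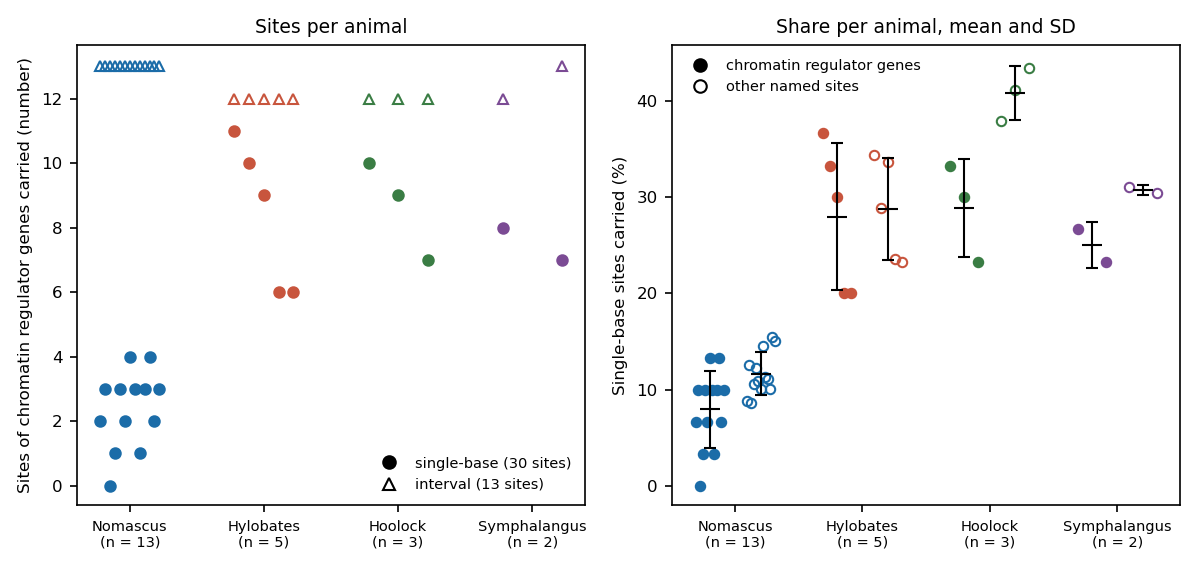
Left, number of the 30 single-base (filled circles) and 13 interval sites (open triangles) of chromatin regulator genes carried by each animal. Right, share of single-base sites carried by each animal for these genes (filled) and for the 2486 other named single-base sites (open). Lines give mean and SD per genus. Nomascus animals carried 0 to 4 single-base sites of these genes and every other animal at least 6. At the other named single-base sites, too, every Nomascus animal lay below every animal of the other genera.

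Counted per animal, Nomascus carried 15.4 ± 1.19 of the 43 sites (SD, n = 13), Hylobates 20.4 ± 2.3 (SD, n = 5), Hoolock 20.7 ± 1.53 (SD, n = 3) and both Symphalangus animals 20. The lowest animal was N. leucogenys replicate 3 with 13, all of them interval sites, and the highest H. moloch replicate 1 with 23. The highest Nomascus animals, with 17, lay below the lowest of the other genera, H. lar and H. pileatus with 18. At single-base sites Nomascus carried 0 to 4 and the other animals 6 to 11. This gap is not particular to these genes. Of all 5490 sites, Nomascus animals carried 1478 to 1736 and the others 1995 to 2882. Of the other named single-base sites, Nomascus animals carried 8.61% to 15.5% and the others 23.3% to 43.4%. Within Hylobates the single-base counts were 11 and 10 in H. moloch, 9 in H. muelleri and 6 each in H. lar and H. pileatus. The last 3 species have 1 animal each, so species and animal cannot be told apart. At the other named single-base sites, too, H. lar and H. pileatus were lowest, with 23.6% and 23.3% against 28.9% to 34.4% in the other Hylobates animals. Interval sites numbered 13 in every Nomascus animal and in S. syndactylus replicate 2, and 12 in all others. These sums were not tested.

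The share of single-base sites carried was set beside that of the 2486 other named single-base sites in the same animals. Nomascus animals carried 7.94% ± 3.97 (SD, n = 13) of those in chromatin regulator genes and 11.6% ± 2.24 of the others. Hylobates animals carried 28% ± 7.68 (SD, n = 5) and 28.8% ± 5.31. In Hoolock the shares were 28.9% ± 5.1 (SD, n = 3) and 40.8% ± 2.77, and in Symphalangus 25% ± 2.4 (SD, n = 2) and 30.8% ± 0.495. Each of the 3 Hoolock animals had the lower share in chromatin regulator genes, 33.3% against 37.9%, 30% against 41.2% and 23.3% against 43.4%. The same held in every other animal but N. leucogenys replicates 7 and 11 and both H. moloch animals. All animals were scored at the same sites, so these values are not independent. With 30 sites, 1 site is a step of over 3 percentage points, and the difference was not tested. When interval sites were included, the mean share was higher in chromatin regulator genes in Nomascus (35.8% against 29.1%), Hylobates (47.5% against 40.4%) and Symphalangus (46.5% against 42.4%). In Hoolock it was 48.1% against 50.2%. These shares were not tested either.

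**Figure D3:**
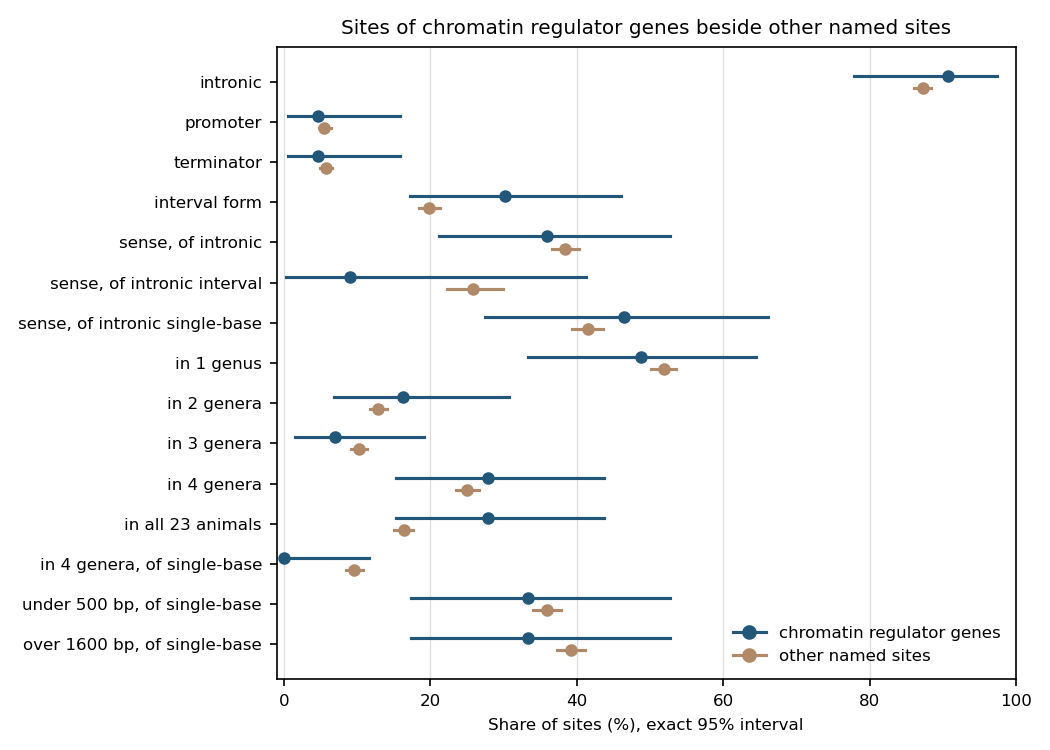
Shares of sites (points) with exact 95% intervals (lines) for the 43 sites of chromatin regulator genes and the 3100 other named sites, by class, form, orientation, genera carrying and length. The interval of the smaller set covers the point of the larger set in every line shown; the widest gaps are in interval form, in sites of all 23 animals and in sense orientation of intronic interval sites.

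Most sites were intronic in both sets. Introns held 39 of the 43 sites, 90.7% (exact 95% interval 77.9 to 97.4), against 87.3% of the others. Promoter sites were those of KDM2A and PHF13, 4.65% against 5.52%, and terminator sites those of CHD1 and KDM8, 4.65% against 5.71%. None of the 43 was in an exon or an untranslated region, and a count of 0 allows a share of up to 8.22%. Among the other named sites these classes held 46 of 3100 in all.

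Orientation is given relative to the gene. Of the 39 intronic sites 14 were sense and 25 antisense, a sense share of 35.9% (interval 21.2 to 52.8) beside 38.4% of the other intronic sites. Within the interval form 1 of 11 intronic elements was sense, that of TET3, or 9.09% (interval 0.23 to 41.3) against 25.9% of the others. Within the single-base form it was 13 of 28, 46.4% (interval 27.5 to 66.1) against 41.5%. The 11 insertions carried by all animals of 1 genus and absent from all others, with no missing call, were 5 sense and 6 antisense. The KMT2C insertion of Symphalangus, with its missing calls, was sense.

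Interval sites made up 30.2% of the 43 (interval 17.2 to 46.1) and 19.8% of the other named sites. Sites carried by all 23 animals made up 27.9% (interval 15.3 to 43.7) and 16.4%. Within the interval form these shares were 92.3% (interval 64 to 99.8) and 81.8%. Sites of a single genus were 48.8% of the 43 (interval 33.3 to 64.5) against 51.9%, and sites in 4 genera 27.9% against 25%. At single-base sites alone, 0 of 30 were carried in 4 genera, which allows up to 11.6%, against 9.61% of the others. Single-genus sites were 70% of the 30 (interval 50.6 to 85.3) against 64.4%. Nomascus had 1 of the 21 single-genus sites, 4.76% (interval 0.12 to 23.8), against 11.9% of the others. Each interval in this paragraph includes the share of the other named sites, and no share was tested against them.

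**Figure D4:**
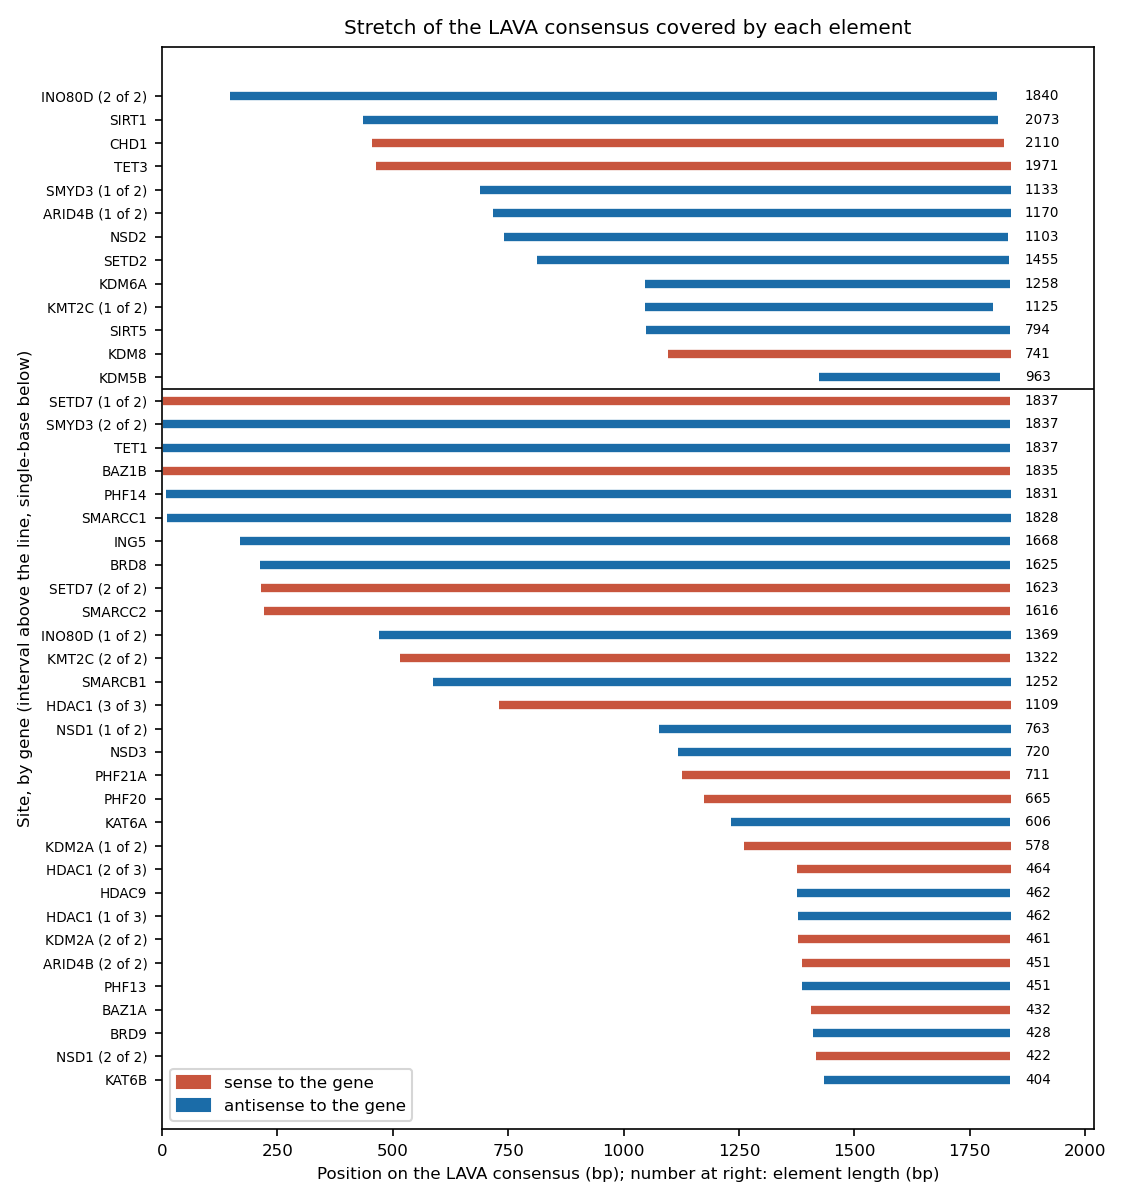
Stretch of the LAVA consensus (horizontal axis, bp) that each of the 43 elements covers, with interval sites above the line and single-base sites below, coloured by orientation to the gene, and element length at the right. Single-base elements all reach the end of the consensus and differ in where they begin.

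The elements differed mainly in where they begin on the LAVA consensus. All 30 single-base elements ended at consensus position 1838 or 1839, as did all of the 2486 others, and their length equals the stretch of consensus covered. Their lengths ran from 404 to 1837 bp with a median of 742, against a median of 1341 in the other named single-base sites. Limits of 500 and 1600 bp, set after the lengths had been seen, split the 30 into 10 short, 10 middle and 10 long elements, 33.3% each (interval 17.3 to 52.8). In the others these shares were 36%, 24.8% and 39.2%. In 6 of the 30 the element began within the first 20 bases of the consensus (20% against 19.6%), in SETD7, SMYD3, TET1, BAZ1B, PHF14 and SMARCC1. Of the 7 Hoolock-only sites 4 were over 1600 bp, beside 304 of 627 among the other named Hoolock-only sites. Of the 7 Hylobates-only sites 4 were under 500 bp and 2 over 1600 bp, beside 198 and 177 of 469 among the others.

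The 13 interval elements were 741 to 2110 bp long, with a median of 1170 against 1340 in the other named interval sites. In 11 of them the element was longer than the stretch of consensus it covers, by a median of 372 bp over all 13 and by up to 742 bp in CHD1. The other 2, in SMYD3 and KDM8, were shorter by at most 18 bp. The next longest excesses were in SIRT1, with 2073 bp over a stretch of 1377, and TET3, with 1971 over 1376. LAVA holds a tandem repeat of variable copy number, and whether it accounts for the excess was not tested. The shortest interval site of the table is 540 bp long, while 10 of the 30 single-base elements were shorter than 500 bp.

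Partner genes of the same complexes, which the name rule leaves out, were described from 5 lists with 230 genes in all. Of these, 41 genes held 54 sites, 7 of them carried by all 23 animals and 29 in a single genus. Polycomb and associated genes had 10 sites in 6 of 38 genes, trithorax and methyltransferase partners 5 in 4 of 38, acetylation co-factors 19 in 15 of 59, remodelling partners 9 in 8 of 42, and DNA methylation and heterochromatin partners 11 in 8 of 53. By Fisher's exact test with adjustment over all sites, the higher side was Hoolock at 12 of the 54 (18.7% of all sites), Hylobates at 7 (11.5%) and Nomascus at 2 (3.01%). Nomascus was the lower side at 3 (4.79% of all sites). Symphalangus was the higher side at 6 (9.58%), an outcome that the minimum of 2 carriers sets. The lists were not tested against these shares. Intronic partner sites were sense in 18 of 52 cases.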

How the data were processed

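Whole-genome libraries were made from gibbon blood DNA, per the labels' protocols. The submitters' processing notes name BWA without a version. No source used here gives the insertion caller, filters, genome build or gene annotation. The authors deposited 1 table with a call of 1, 0 or NA per site and animal, read here as carried, not carried and missing, and with position, length, consensus position, class, orientation and human gene name per site. Each of the 23 call columns names its animal. Replicates are numbered in order of deposit and the numbers pair nothing.

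Missing calls were counted as not carried. Each genus was set against the others at every site by Fisher's exact test (two-sided), adjusted over the whole table (Benjamini-Hochberg, threshold 0.05). The p-values treat animals as independent. Intervals of shares are Clopper-Pearson 95% intervals and reflect counting error alone. The gene rule, role groups and partner lists were chosen with earlier results of these data known, so no list was tested against other genes. Every gene of the rule is named, with values for each site. Python 3.11.15, pandas 2.3.3 and SciPy 1.17.1 were used. Element and flanking sequences were not used here.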

Additional observations from a re-analysis of the deposited data

How the results depend on the processing

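Counts of the 43 sites past the threshold are small, and 1 animal moves them. Shares over all sites under the changed settings are not given here. Sites with equal carrier and animal counts in a comparison have equal adjusted p, so they pass or fail together across the table. The counts below therefore show how the calls depend on the setting and nothing particular to these genes. With each of 13 animals left out in turn (all Hylobates, Hoolock, Symphalangus and N. gabriellae animals and N. leucogenys replicate 1), sites higher in Hylobates ranged from 2 to 6, sites lower in Hylobates from 0 to 1, sites higher in Hoolock from 4 to 6, sites higher in Symphalangus from 0 to 6 and sites lower in Nomascus from 1 to 5. The 1 site higher in Nomascus held throughout. The rise to 4 or 5 sites lower in Nomascus came without 1 Hoolock or Symphalangus animal, where BAZ1B and NSD1 passed and, except without H. leuconedys replicate 1, HDAC1. With the Holm adjustment 0 sites passed in each of the comparisons, and all 19 calls were lost. With single-base sites only, sites higher in Hoolock rose to 7, sites higher in Nomascus and lower in Hylobates fell to 0, and sites in 4 genera fell to 0. With interval sites only, all but 1 of the counts were 0, since the single-base sites are gone and the NSD2 call in Hylobates was lost (adjusted p = 0.11). Without sites that have a missing call, 1 site was lower in Nomascus, because ING5 has such a call. At or above the length of the shortest interval site, 1 site was higher in Hylobates. No call changed direction among the 355 recomputed, of which 293 passed again. With single-base sites only, 30 sites in 25 genes were left, and the sense share of intronic sites was 46.4%. It was 30% among sites at least as long as the shortest interval site. Single-genus sites fell from 21 to 15 under that length limit, and also when a genus counted as a carrier only if all its animals with a call carried the site. Without the prefixes ARID and PRDM, 41 sites in 33 genes were left. Depth per animal is unknown, so no call can be weighted by it.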

Other observations

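Some pairs of regulators lie close together on the deposited map. The Hoolock-only insertion in SMARCC1 and the element of all 23 animals in SETD2 were 578 kb apart on chromosome 4, and the element of all animals in SIRT1 and the insertion in TET1 were 962 kb apart on chromosome 18.

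Among the partner genes, RCOR1, which encodes the CoREST scaffold that binds HDAC1, had 4 intronic sites, more than any of the 34 genes described above. An interval element of 828 bp was carried by all 23 animals, an insertion of 402 bp by 8 animals of Hylobates, Hoolock and Symphalangus, one of 1541 bp by the 5 Hylobates animals and one of 1837 bp by both Symphalangus animals. PHC3, a Polycomb gene, had 3 antisense sites: an interval element of 678 bp in all 23 animals and insertions of 1690 and 1607 bp, each in the 3 Hoolock animals. RCOR1 and PHC3 were singled out after their values had been seen.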
